A study of Mus musculus with 24 samples.

Results

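Peaks of open chromatin that lie in the second or a later intron of a gene and more than 10000 bp from the nearest annotated transcription start site (TSS) were described in small intestinal epithelium of aged and young mice. Of 150646 consensus peaks, 25703 (17.1%) met these conditions, which use the deposited annotation and no measured value. ATAC-seq, which reads out accessible DNA through the adapters that the enzyme Tn5 inserts there, had been run on 3 aged libraries (numbered 1, 2 and 4) and 3 young libraries (numbered 1, 2 and 4) from C57BL/6JRj mice, each library being 4 lanes of the 24 sample records. No genotype or treatment other than age separates the groups. The labels give the ages only as Aged and Young, and the design text of the series gives 20 to 22 months and 2 to 3 months. Per the labels' protocols the cells came fresh from the small intestine, were released with EDTA and trypsin and were sorted as EpCam+ and CD45-, a gate for epithelial cells without leukocytes. The design text instead ties the ATAC-seq to organoids grown from mice of these ages, and the files do not settle which is right. The labels do not say that each library came from a separate animal, so the p-values measure the spread between these libraries, which may be technical.

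Introns hold many of the enhancers of a mammalian genome. An enhancer is a stretch of DNA that binds transcription factors and raises transcription from a promoter on the same chromosome, often through a DNA loop and often past nearer genes, so that an enhancer in an intron may act on its host gene or on a neighbour. In intestinal epithelium, open enhancers are known to be bound by lineage factors such as the HNF4, CDX and GATA families. Peaks in later introns and far from any start site are the intronic regions least likely to be the edge of a promoter, although unannotated start sites can lie within them.

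Of the 25703 peaks, 141 (0.549%) overlapped a promoter window of RefSeq (250 bases before to 50 bases after the start of a gene, assembly GRCm38.p6), and for these alone a sequence was at hand. None overlapped any of 1005 RefSeq miRNA hairpins. These starts belong to RefSeq genes, often predicted noncoding RNAs, that the deposited annotation did not use when it measured the distance to a TSS. The overlapped peaks had a median of 3.84 CPM (counts scaled to library size, after TMM scaling of the libraries), against 1.42 for all 25703. Of the 129 of them with enough counts to test, 1 was called higher and 1 lower in aged libraries (1.55%, against 1.42% of all tested later-intron peaks). The overlapping stretches of these 2 are printed below with that of the Slc22a5-proximal peak, which is among the 6 strongest of all. Each is on the strand of the RefSeq gene, 5′ to 3′. Capitals mark matches on either strand to AGATAA (the GATA factors' core), TTTATNG (CDX), TGANTCA (a loose AP-1 pattern), AAAGTCC (a short HNF4 motif), ATCAAAG (TCF7L2), TGTTTAC (FOXA) and GGAATG (TEAD). The AP-1 element itself has C or G at the N, where the pattern takes any base.
Tmco4 intron 9 at the start of Gm33214, GRCm38.p6 chr4:139019510-139019599, minus strand: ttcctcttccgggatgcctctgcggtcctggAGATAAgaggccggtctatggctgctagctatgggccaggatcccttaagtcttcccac
Arhgef10l intron 3 at the start of Gm42335, GRCm38.p6 chr4:140604857-140605054, plus strand: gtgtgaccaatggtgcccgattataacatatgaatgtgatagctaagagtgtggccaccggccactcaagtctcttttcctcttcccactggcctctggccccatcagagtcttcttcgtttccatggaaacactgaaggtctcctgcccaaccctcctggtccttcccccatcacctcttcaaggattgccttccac
Gm12216 intron 2, nearest TSS that of Slc22a5, at the start of Gm30785, GRCm38.p6 chr11:53840009-53840308, plus strand: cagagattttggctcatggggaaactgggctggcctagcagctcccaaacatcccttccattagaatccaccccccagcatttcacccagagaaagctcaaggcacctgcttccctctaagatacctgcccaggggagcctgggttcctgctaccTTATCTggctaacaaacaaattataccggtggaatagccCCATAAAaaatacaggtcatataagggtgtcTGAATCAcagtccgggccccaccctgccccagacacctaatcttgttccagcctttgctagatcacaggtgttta

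The Tmco4 stretch held 1 AGATAA match in 90 bases, and 4.18% of all 32851 windows had one in the same stretch of the window. The Arhgef10l stretch held none of the 7 motifs in 198 bases. Both stretches lay upstream of the RefSeq start and did not include it, so 'at the start' above means within the promoter window. The Slc22a5-proximal stretch covered a whole window of 300 bases. It held 1 match each to AGATAA (in 11.2% of all windows), TTTATNG (10.9%) and TGANTCA (7.81%), the 3 matches not overlapping one another. The last of these reads TGAATCA, with A at the centre, and so is not the AP-1 element itself. Shares of TGANTCA count any base at the centre. Across the 83 windows with at least 150 bases inside one of the intronic peaks, 15 (18.1%) held AGATAA, 16 (19.3%) held TTTATNG and 13 (15.7%) held TGANTCA. Of the other motifs marked, GGAATG was in 16 (19.3%, against 14.7% of all windows), TGTTTAC in 6 (7.23% against 3.65%), ATCAAAG in 5 (6.02% against 3.73%) and AAAGTCC in 3 (3.61% against 4.21%). These shares carry no test. The ETS motif CCGGAAGT, frequent at promoters, was in 0 of the 83 and in 3.89% of all windows. The median number of CG dinucleotides per window was 4 in these 83 and 7 in all windows, and GC content was 51.0% and 52.7%. A letter match is a description of the window and not a binding site.

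The Tmco4 peak (GRCm38, as for all peaks, chr4:139019510-139019894) had 7.64, 3.97 and 3.80 CPM in aged libraries 1, 2 and 4, against 15.4, 13.0 and 11.3 CPM in young libraries 1, 2 and 4. Every aged library was below every young one, and the log2 fold change, aged over young as throughout, was -1.42 ± 0.20 (SE, with adjusted p = 6.9e-05, quasi-likelihood test of edgeR, p adjusted by Benjamini and Hochberg's method across every tested peak). A second Tmco4 peak in intron 10 (chr4:139020465-139020738) averaged 3.19 ± 0.401 CPM in aged libraries and 6.55 ± 0.160 CPM in young libraries (mean ± SD, n = 3 each, as for all such means). It was also called lower, at -1.04 ± 0.18 (SE, with adjusted p = 0.000657, same test). Both Tmco4 peaks are described because of the RefSeq window and were chosen after their values were seen.

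The 25703 peaks lay in 5834 host genes, the gene whose intron the annotation names, of which 5514 had a symbol in the files. Protein-coding genes were host to 95.9% of them and lincRNA genes to 564. Host genes were often not the genes with the nearest TSS: that TSS was the host's own for 11397 peaks (44.3%) and another gene's for 14306 (55.7%). The distance to it had a median of 30123 bp (quartiles 17846.5 and 56149 bp) and reached 731452 bp, and 38.6% of the peaks were upstream of it. Intron number had a median of 4 and reached 106, and 4699 peaks (18.3%) were in the last intron. A total of 1926 host genes held a single peak, while 627 genes with at least 10 held 11020 of the peaks. The most were in Fgfr2, a fibroblast growth factor receptor, with 92, in Sox6, a transcription factor, and Gm37240 with 64 each, in Arid1b, a subunit of the BAF chromatin remodelling complex, with 58, and in Foxp1, a forkhead transcription factor, and Prkca, a protein kinase C, with 57 each.

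Their median width was 203 bp (71 to 1696 bp), against 202 bp for later-intron peaks nearer a TSS, 208 bp in first introns, 414 bp at promoters and 223 bp over all peaks. Their median level was 1.42 CPM, against 2.18 CPM in first introns, 1.61 CPM in intergenic peaks 10 to 100 kb from a TSS and 8.52 CPM at promoters. Per kilobase of peak the median was 6.85 CPM, against 10.3 in first introns, 7.36 in those intergenic peaks and 8.99 over all peaks. These class levels are descriptions of the same 6 libraries and carry no test.

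Depth limited what could be seen at such levels. The libraries held 16900796, 23935291 and 17453629 counts in peaks (aged 1, 2 and 4) and 22819924, 20046684 and 6149680 (young 1, 2 and 4), and the median count per later-intron peak was 21, 34 and 26 in aged libraries and 29, 29 and 10 in young libraries. Young 4, the shallowest, had 589 of the peaks at 0, where the other 5 libraries had 30 to 116. Of 12 epithelial marker genes, 11 had a promoter peak, all but Vil1, with summed levels of 444 to 488 CPM in aged and 451 to 523 CPM in young libraries. Of 12 leukocyte markers only Coro1a had one (8.75 to 12.3 CPM in aged, 9.26 to 10.8 CPM in young), and Ptprc, which encodes CD45, had none. Of 10 stromal markers 5 had one (20.3 to 20.4 CPM in aged, 18.8 to 21.7 CPM in young), of 6 endothelial markers 1 (0.794 to 1.25 and 0.891 to 1.75 CPM) and of 6 neuronal and glial markers 2 (10.0 to 11.7 and 10.1 to 12.6 CPM). No marker peak was called between the ages.

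Few of these intronic peaks were called between the ages, and more of the calls were higher than lower in aged libraries. Of 20974 peaks with enough counts to test (81.6% of the 25703), 205 (0.977%) were called higher and 93 (0.443%) lower in aged libraries at an adjusted p below 0.05 (quasi-likelihood test of edgeR). Over all 129588 tested peaks the shares were 1.07% higher and 0.528% lower, so the later-intron peaks were called at about the rate of peaks in general. In the fit with the library number as a block, which paired aged and young libraries of the same number, 384 were called higher and 231 lower. The counts also leaned on single libraries: without young 2 they were 95 and 59, and without aged 4 they were 126 and 75. Counts over all tested peaks, 1393 higher and 684 lower in the main fit, moved the same way. They were 2578 and 1420 with the block, 742 and 474 without young 2 and 886 and 587 without aged 4. The shifts are thus not particular to later-intron peaks. The median log2 fold change of the tested peaks was -0.02, against -0.004 over all tested peaks.

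First-intron peaks were called higher in 0.841% and lower in 0.334% of tests, later-intron peaks within 10 kb of a TSS in 0.951% and 0.383%, and intergenic peaks 10 to 100 kb from a TSS in 1.53% and 0.324%. Promoter peaks went the other way, with 0.604% higher and 0.863% lower. The differences between these shares were not tested. The 3 aged values lay wholly above the 3 young values in 1378 tested later-intron peaks (6.57%) and wholly below in 1505 (7.18%), against 7.32% and 6.54% of all tested peaks. At an unadjusted p below 0.05 there were 1824 of the 20974 tested later-intron peaks, a count that includes those expected by chance. No matching share over all tested peaks is given here, so it is not read as a number of changed peaks.

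**Figure D1:**
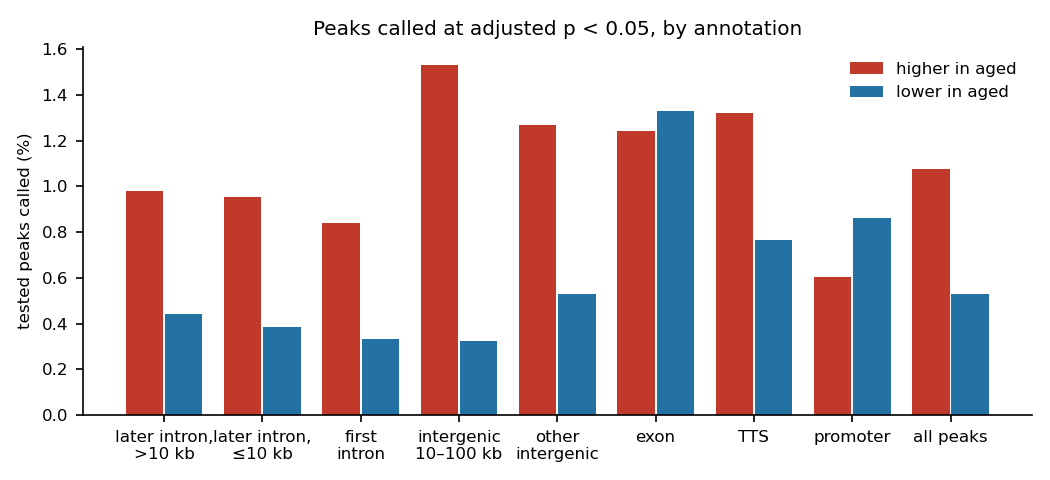
Share of tested peaks (y axis, %) called higher (red) or lower (blue) in aged libraries at an adjusted p below 0.05, by annotation class (x axis), with later-intron peaks over 10 kb from a TSS at the left and all peaks at the right. The 0.977% and 0.443% of the later-intron peaks sit close to the 1.07% and 0.528% of all peaks, and intergenic peaks at 10 to 100 kb have the tallest red bar, 1.53%.

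The 205 peaks called higher had a median log2 fold change of 1.33, and 147 of them changed more than 2-fold and 40 more than 4-fold. They were in 171 host genes, their median level was 3.34 CPM in aged and 1.39 CPM in young libraries, and 49 had a young mean under 0.5 CPM. The 93 called lower had a median of -1.43, with 82 past 2-fold and 27 past 4-fold. They were in 79 host genes, with a median of 0.761 CPM in aged and 2.50 CPM in young libraries, and 34 had an aged mean under 0.5 CPM. Those 49 higher and 34 lower peaks passed the count filter only with counts from the other age. Of the 205 higher peaks, 48 had another higher one within 10000 bp, and of the 93 lower ones 18 had another lower one. An opposite call that near was found for 0 peaks. No test was run on these counts, and the matching shares over all called peaks are not given here. Some neighbours were adjacent peaks, as at Rerg (chr6:137136145-137136414 and chr6:137136524-137136688), and may not be independent. Both directions were called in 3 host genes, Foxp1, Tspan12 and Zfp407.

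Calls were rare among the strongest peaks. Of the 890 tested later-intron peaks with a mean of at least 20 CPM only 2 were called, both lower. The matching share over all peaks at that level is not given here. Aged values lay wholly above young ones in 72 of the 890 (8.09%) and wholly below in 30 (3.37%), so the 2 calls do not show a lean. The 2 called peaks are named here after their values were seen. The one in intron 2 of 22 of Gphn, the gene of the synaptic scaffold and cofactor enzyme gephyrin, had 33.7, 28.1 and 22.1 CPM in aged libraries 1, 2 and 4, against 54.1, 42.2 and 71.0 CPM in young libraries 1, 2 and 4 (-0.97 ± 0.16 SE; adjusted p = 0.00147, quasi-likelihood test of edgeR). Its call was lost with the library number as a block (adjusted p = 0.461) and without young 1 (0.0515). The one in intron 3 of 5 of Jarid2, a cofactor of Polycomb repression, averaged 23.5 ± 4.91 CPM in aged and 40.8 ± 11.4 CPM in young libraries (-0.76 ± 0.17 SE; adjusted p = 0.0183, same test). That call was lost with the block (0.518), with library size scaling (0.0599), with DESeq2's Wald test (0.337) and without aged 4 (0.103) or young 1 (0.140). Between 2 and 5 CPM, 68 of 5299 (1.28%) were higher and 24 (0.453%) lower.

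**Figure D2:**
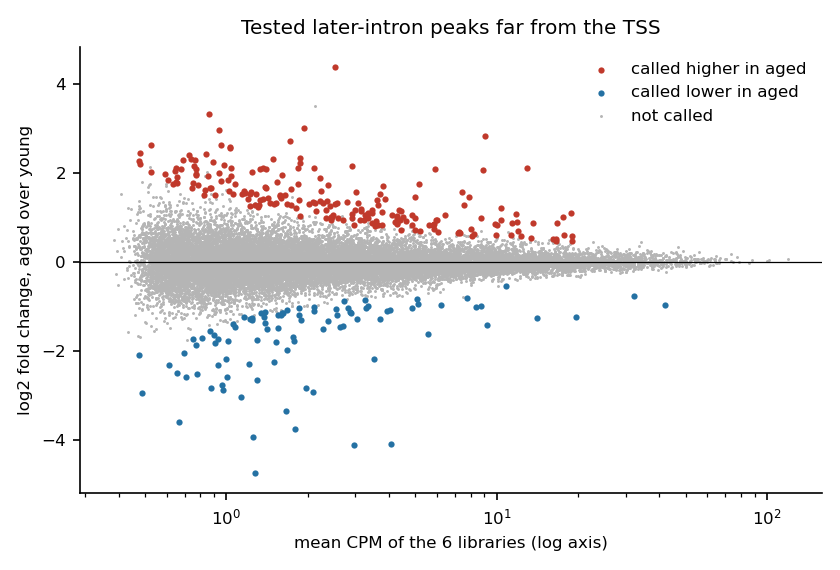
Log2 fold change, aged over young (y axis), against mean CPM of the 6 libraries (x axis, log scale) for the 20974 tested later-intron peaks, with 205 called higher in red, 93 called lower in blue and the rest in grey. All but 2 called peaks are under 20 CPM, and the lowest blue point, at -4.73, is the Tiam1 peak, followed by peaks of Kcnt2 at -4.11 and -4.08.

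By distance, 83 of 6415 tested peaks at 10 to 20 kb were higher (1.29%) and 22 lower (0.343%), 73 and 41 of 8560 at 20 to 50 kb, 29 and 19 of 4023 at 50 to 100 kb, and 20 (1.01%) and 11 (0.557%) of 1976 beyond 100 kb. By intron, 59 of 6141 peaks in intron 2 were higher and 21 lower, against 41 and 21 of 3656 in intron 11 or later. Peaks whose nearest TSS was the host's own were called higher in 107 and lower in 44 of 9264 tests, and those nearer another gene's TSS in 98 and 49 of 11710.

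**Figure D3:**
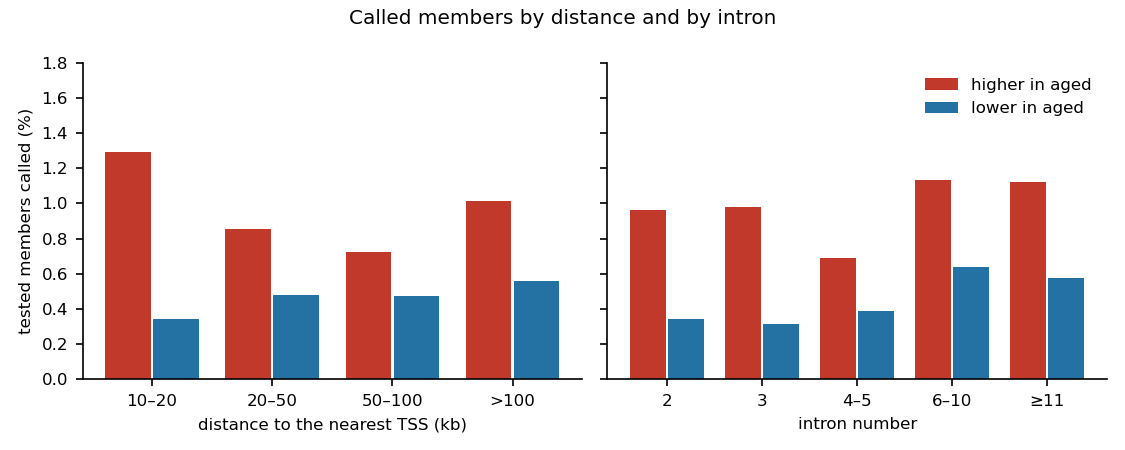
Share of tested later-intron peaks (y axis, %) called higher (red) or lower (blue) in aged libraries, by distance to the nearest TSS (left, kb) and by intron number (right). The red bar is tallest at 10 to 20 kb, 1.29%, where the blue one is 0.343%, and no steady order runs along the introns.

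The higher and lower peaks with the smallest p were taken from called peaks whose aged and young values did not overlap. The higher peak with the smallest p was in intron 2 of 27 of Abi3bp, which encodes a secreted protein of the extracellular matrix (chr16:56537950-56538366). It had 16.1, 12.7 and 18.6 CPM in aged libraries 1, 2 and 4, against 2.47, 1.78 and 2.71 CPM in young libraries 1, 2 and 4. The aged values were all several times the young ones, and the log2 fold change was 2.82 ± 0.19 (SE, with adjusted p = 8.04e-12, quasi-likelihood test of edgeR). Another Abi3bp peak in the same intron averaged 1.54 ± 0.567 CPM in aged and 0.579 ± 0.225 CPM in young libraries and was also called higher, at 1.52 ± 0.39, while the 2 other tested Abi3bp peaks, at 0.07 and 0.16, were not called. That second peak is named after its values were seen, and its call (adjusted p = 0.0339) was lost without aged 1 (0.0592), aged 4 (0.335), young 1 (0.0607) or young 2 (0.351).

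Rerg encodes a small Ras-like GTPase described as a growth inhibitor, and 4 of its 15 tested later-intron peaks were called higher, all in intron 2 of 2 over 17743 bp of chromosome 6. The strongest by p, chr6:137136145-137136414, had 9.31, 8.94 and 9.88 CPM in aged libraries and 2.11, 1.78 and 3.34 CPM in young ones. Its neighbour at chr6:137136524-137136688 had 2.53, 2.88 and 3.63 CPM in aged libraries and 0.458, 0.495 and 0.318 CPM in young ones. In both, the lowest aged value was more than the highest young value, and the log2 fold changes were 2.09 ± 0.20 and 2.72 ± 0.32 (SE, with adjusted p = 1.68e-08 and 1.14e-06, quasi-likelihood test of edgeR). The other 2 Rerg peaks averaged 4.37 ± 0.795 and 17.8 ± 0.591 CPM in aged libraries and 1.67 ± 0.784 and 9.56 ± 1.30 CPM in young ones, a rise of 1.57 and 0.88 on the log2 scale.

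A peak in intron 21 of 37 of a gene without a symbol in the files, inside the RefSeq span of Trdn, which encodes triadin of the sarcoplasmic reticulum (chr10:33379239-33380021), had 4.44, 4.51 and 5.57 CPM in aged libraries and 0.137, 0.347 and 0.159 CPM in young ones. All 3 young libraries were under 0.4 CPM, and the log2 fold change was 4.37 ± 0.34 (SE, with adjusted p = 1.84e-10, quasi-likelihood test of edgeR). Its nearest TSS was 244616 bp away, that of the antisense gene Gm15939. The peak in the last intron of Srl, the gene of the calcium-binding sarcalumenin (chr16:4489052-4489562), had 28.5, 25.7 and 23.8 CPM in aged libraries and 12.9, 12.4 and 10.2 CPM in young ones. That is a difference of 1.10 ± 0.13 (SE, with adjusted p = 7.95e-07), the ages again not overlapping. Neither gene's expression was measured.

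Xdh encodes xanthine dehydrogenase, which makes uric acid in purine breakdown. The peak in its last intron, 35 of 35 (chr17:73885953-73886395), had 3.14, 3.51 and 3.80 CPM in aged libraries and 0.366, 0.594 and 0.159 CPM in young ones, with a log2 fold change of 3.00 ± 0.32 (SE, with adjusted p = 1.68e-07, quasi-likelihood test of edgeR). Every aged library was above 3 CPM and every young one below 0.6 CPM. Dzip1l, the gene of a protein of the ciliary transition zone, had a peak in intron 12 of 15 (chr9:99661664-99662219) with 7.64, 8.44 and 7.89 CPM in aged and 2.47, 2.43 and 2.07 CPM in young libraries, and the difference was 1.75 ± 0.19 (adjusted p = 1.71e-07).

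The other 3 were a lincRNA intron, Wscd1 and Grik3. The peak in the last intron of the lincRNA 1110019D14Rik (chr6:13982517-13982925) had 18.4, 23.4 and 21.2 CPM in aged libraries and 4.76, 4.90 and 5.10 CPM in young ones. Even the lowest aged value was far above the highest young one. Its log2 fold change was 2.11 ± 0.15 (SE, with adjusted p = 1.57e-11, quasi-likelihood test of edgeR). In the last intron of Wscd1 (chr11:71787911-71789037), a wide peak of 1127 bp averaged 14.5 ± 1.41 CPM in aged and 3.33 ± 1.44 CPM in young libraries, at 2.06 ± 0.20. In intron 13 of 15 of Grik3, a kainate-type glutamate receptor subunit (chr4:125702761-125703623), the means were 11.2 ± 1.42 and 3.76 ± 0.625 CPM, at 1.57 ± 0.17. Both gaps exceeded the spread within either age.

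Among the lower peaks, the smallest p was in intron 4 of 4 of Src, a membrane-associated tyrosine kinase (chr2:157457204-157457830). It had 11.4, 9.57 and 14.3 CPM in aged libraries 1, 2 and 4, against 27.9, 25.5 and 29.0 CPM in young libraries 1, 2 and 4. Every aged library was well below every young one, and the log2 fold change was -1.23 ± 0.14 (SE, with adjusted p = 2.94e-07, quasi-likelihood test of edgeR). The 2 other tested Src peaks, at 0.708 ± 0.275 and 1.29 ± 0.185 CPM in aged and 0.811 ± 0.216 and 1.40 ± 1.14 CPM in young libraries, were not called, at -0.31 ± 0.40 and 0.25 ± 0.39.

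Several lower peaks were close to empty in aged libraries and passed the count filter through their young counts. Tnfrsf19, also called Troy, is a Wnt target known to mark stem cells of the intestinal crypt. Its peak in intron 3 of 9 (chr14:61012422-61012703) had 0, 0.251 and 0.170 CPM in aged libraries and 2.24, 2.97 and 1.91 CPM in young ones, at -3.93 ± 0.44 (SE, with adjusted p = 4.46e-07, quasi-likelihood test of edgeR). In Dgkg, diacylglycerol kinase gamma, a peak in intron 11 of 24 (chr16:22572655-22573034) had 0.308, 0.669 and 0.341 CPM in aged libraries and 3.11, 3.22 and 4.94 CPM in young ones, at -2.93 ± 0.32 (adjusted p = 3.21e-07). In both the ages were far apart, with every aged library under 0.7 CPM.

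Acaa2 encodes the mitochondrial thiolase that ends each round of fatty acid oxidation. Its peak in intron 7 of 9 (chr18:74800838-74801328) had 0.308, 0.209 and 0.341 CPM in aged libraries and 1.92, 3.22 and 3.98 CPM in young ones. Its log2 fold change was -3.33 ± 0.38 (SE, with adjusted p = 4.46e-07, quasi-likelihood test of edgeR). Aged signal was under 0.4 CPM in every library, and every young library was above every aged one.

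The remaining lower hosts were Btbd9, Setd3, Tiam1 and Kcnt2. Setd3, which methylates actin, had a peak in intron 3 of 4 that averaged 2.81 ± 1.07 CPM in aged and 8.36 ± 1.11 CPM in young libraries, at -1.61 ± 0.21 (SE, with adjusted p = 5.32e-06, quasi-likelihood test of edgeR). Btbd9, the gene of a BTB-domain protein, had one in intron 6 of 10 at 0.480 ± 0.215 and 3.46 ± 0.933 CPM, with a difference of -2.83 ± 0.34 (adjusted p = 1.2e-06). In each the aged libraries lay wholly below the young ones. The peaks described here from the 10 smallest p higher and the 10 smallest p lower include 1 of Tiam1 and those of Kcnt2. All kept their direction and their call in every alternative in which they were tested. Choosing the smallest p in these same libraries favours that outcome. Of all 101 named peaks, called or not, 58 kept theirs in every alternative.

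**Figure D4:**
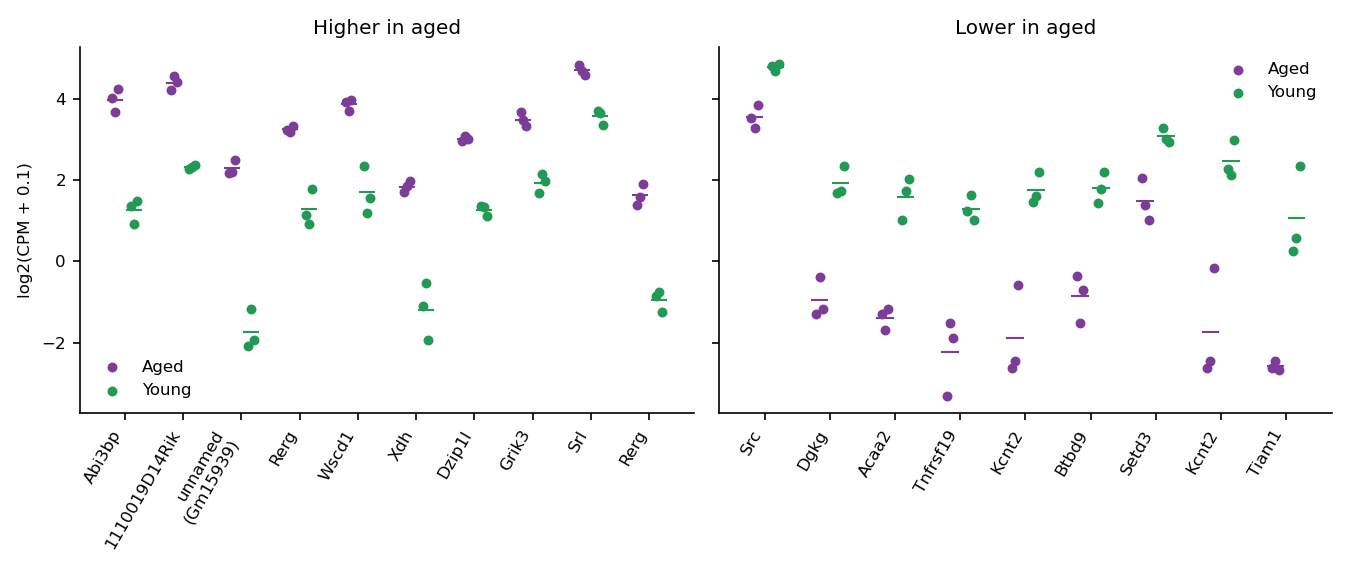
Log2(CPM + 0.1) of each library (points; bars are means of the 3 log values) for the later-intron peaks with the smallest p, 10 higher (left) and 9 of the 10 lower (right) in aged libraries, labelled by host gene, aged in purple at the left and young in green at the right of each pair. No pair overlaps, which the choice of peaks required. In Tnfrsf19, Tiam1 and Kcnt2 most aged points are near the floor of the scale.

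Kcnt2, which encodes a sodium-activated potassium channel subunit, had all of its tested later-intron peaks called in one direction: all 4, 3 in intron 8 and 1 in intron 11 of 27 over 22800 bp of chromosome 1, were called lower. The first (chr1:140406697-140406903) had 0.0616, 0.0836 and 0.568 CPM in aged libraries and 2.65, 2.92 and 4.46 CPM in young ones, at -3.75 ± 0.43 (SE, with adjusted p = 1.11e-06, quasi-likelihood test of edgeR). The next pair had 0.0616, 0.0836 and 0.795 CPM and 0.123, 0.125 and 1.08 CPM in aged libraries, against 4.71, 4.26 and 7.80 CPM and 6.09, 5.99 and 10.99 CPM in young ones. Aged 4 was the highest aged library at all 4 and young 4 the highest young one, so the libraries numbered 4 stood above the others of their age. Aged 1 and 2 had 1 to 3 counts at each of the 4, so these peaks passed the count filter through the young libraries. A peak as low in both ages would not have been tested, so the shared direction is in part set by the filter. The log2 fold changes of that pair were -4.11 and -4.08, and that of the fourth was -2.57 (adjusted p = 0.00663).

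Tiam1, an activator of the Rac GTPase, had 5 later-intron peaks, of which 3 passed the count filter, all below 0. The 2 called ones passed it through their young counts. The one in intron 2 of 27 at chr16:89954577-89954760 had 0.0616, 0.0836 and 0.0568 CPM in aged libraries and 1.10, 1.39 and 4.94 CPM in young ones. Young 4 was more than 3 times the other young libraries, and even the lower 2 exceeded every aged value, with a log2 fold change of -4.73 ± 0.66 (SE, with adjusted p = 5.14e-05, quasi-likelihood test of edgeR). A second peak in that intron was called lower at -2.52 ± 0.65 (adjusted p = 0.0429) and lost its call without aged 1 (0.0815), aged 2 (0.162), aged 4 (0.0817) or young 4 (0.278). The remaining one, at -1.15 ± 0.49, was not called.

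Dapk1, the gene of a calmodulin-regulated kinase that promotes cell death, was singled out after its values were seen. All 6 of its tested later-intron peaks were below 0, from -0.53 to -2.93, and 3 were called lower. The peak in intron 18 of 25 at chr13:60736325-60736694 had 0.555, 0.877 and 0.852 CPM in aged libraries and 2.06, 2.13 and 4.14 CPM in young ones, at -1.69 ± 0.32 (SE, with adjusted p = 0.00159, quasi-likelihood test of edgeR). The called pair in intron 2 averaged 0.169 ± 0.0496 and 0.0886 ± 0.108 CPM in aged and 1.14 ± 0.549 and 0.884 ± 0.265 CPM in young libraries. That pair passed the count filter through its young counts. One of the pair lost its call without young 2 (adjusted p = 0.0611) and the other without aged 1 (0.0501) or aged 4 (0.0593). The Dapk1 promoter peak was lower too, with 1.60, 3.34 and 1.93 CPM in aged libraries against 6.22, 6.44 and 7.01 CPM in young ones, at -1.45 ± 0.22 (adjusted p = 6.95e-05).

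Jdp2 encodes a bZIP protein that represses AP-1 targets, and 3 of its 4 tested later-intron peaks were called higher, with all 4 above 0. The strongest (chr12:85631208-85631832) had 15.4, 11.9 and 13.6 CPM in aged libraries and 6.64, 7.23 and 7.48 CPM in young ones, at 0.95 ± 0.15 (SE, with adjusted p = 0.000113, quasi-likelihood test of edgeR). The others averaged 8.71 ± 1.33 and 1.13 ± 0.236 CPM in aged and 4.12 ± 1.13 and 0.2497 ± 0.0677 CPM in young libraries, at 1.06 and 2.28. The peak at 1.06 lost its call with every library thinned to the depth of the shallowest (adjusted p = 0.112, same test). The ages did not overlap at any of the 3.

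In Plekhh1, also singled out after its values were seen, 3 of 6 tested peaks were called higher, and the one in intron 2 of 28 (chr12:79047083-79047613) had 21.4, 21.4 and 27.9 CPM in aged libraries and 12.7, 10.6 and 11.5 CPM in young ones. It was at 1.01 ± 0.14 (SE, with adjusted p = 9.12e-06, quasi-likelihood test of edgeR), while a stronger peak some kilobases upstream in the same intron, at 33.7 ± 2.37 CPM in aged and 29.2 ± 1.13 CPM in young libraries, was not called (0.20 ± 0.11).

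Kcnj15, an inward-rectifier potassium channel gene, was the nearest gene of 3 higher peaks. A pair in its own intron 2 averaged 1.26 ± 0.245 and 1.47 ± 0.246 CPM in aged and 0.264 ± 0.0609 and 0.309 ± 0.107 CPM in young libraries, at 2.30 and 2.24. Another lay in the last intron of Erg, an ETS transcription factor gene, 103426 bp from the Kcnj15 start, and averaged 7.31 ± 0.771 CPM in aged and 3.90 ± 0.827 CPM in young libraries, at 0.83 ± 0.18 (SE, with adjusted p = 0.00738, quasi-likelihood test of edgeR). Its call was lost without young 2 (0.0726).

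Afap1l2, the gene of an adaptor that binds Src, was nearest to 4 higher peaks, but 3 of them lay in introns of its neighbour Ablim1, an actin-binding LIM protein gene, 128217 to 150973 bp away. Of 20 tested peaks near Afap1l2, 17 were above 0, and their median was 0.45. The call at chr19:57056714-57056827 had 1.42, 1.04 and 1.31 CPM in aged and 0.366, 0.149 and 0.159 CPM in young libraries, at 2.30 ± 0.45 (SE, with adjusted p = 0.00249, quasi-likelihood test of edgeR). It was lost without young 2 (0.0597). The peak next to it, at 1.36 ± 0.29, lost its call without aged 4 (0.0930) or young 2 (0.140). The strongest of the 4, at 22.0 ± 2.15 CPM in aged and 16.1 ± 0.945 CPM in young libraries, had a log2 fold change of only 0.46 (adjusted p = 0.0490) and lost its call without aged 1 (0.188), aged 4 (0.235), young 1 (0.160) or young 2 (0.268), as did the one in Afap1l2 itself, at 1.24, without any library but aged 2 (0.0571 to 0.216).

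In intron 2 of 3 of a Foxp1 transcript, nearest to Gm20705, 3 adjacent peaks were called higher, at 1.99, 0.83 and 1.14, and the middle one had 7.33, 7.56 and 7.16 CPM in aged and 4.12, 3.81 and 4.78 CPM in young libraries. That middle call was lost without young 2 (adjusted p = 0.0914, quasi-likelihood test of edgeR), and the last without aged 4 (0.0750), young 1 (0.0754) or young 2 (0.150). A further peak of the same intron was called lower, averaging 0.301 ± 0.0614 CPM in aged and 1.56 ± 0.388 CPM in young libraries, at -2.30 ± 0.41. In all, 22 of the 52 tested Foxp1 peaks were above 0 and 30 below, with a median of -0.06.

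Tspan12, a tetraspanin of the Norrin and Frizzled pathway, had 2 higher peaks in intron 2, at 15.5 ± 1.55 CPM in aged against 8.20 ± 1.08 CPM in young libraries (0.89 ± 0.14 SE; adjusted p = 0.000141, quasi-likelihood test of edgeR) and at 4.01 ± 0.696 against 1.84 ± 0.667 CPM (0.99 ± 0.24). The second lost its call without aged 1 (adjusted p = 0.113), young 2 (0.122) or young 4 (0.0503). A peak in its last intron was called lower, with 0.185, 0.209 and 0.170 CPM in aged and 0.961, 1.34 and 2.39 CPM in young libraries, at -2.83 ± 0.48. In Mbnl2, a splicing regulator gene, 3 peaks within 1801 bp of intron 2 and nearest to Gm26679 were called lower, the main one with 6.47, 4.72 and 5.39 CPM in aged and 10.7, 10.3 and 12.6 CPM in young libraries, at -1.004 ± 0.16 (adjusted p = 0.000153). The other 2, at -1.18 and -1.25, lost their calls in most fits without a library: the first without aged 2 (0.0713), aged 4 (0.128) or young 1 (0.308), and the second without any but aged 1 (0.0734 to 0.203).

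Zfp407, a zinc-finger gene named after its values were seen, was the third host with both directions among its 11 tested peaks. The lower one, in intron 4 of 8 (chr18:84355311-84355510), had 0.185, 0.167 and 0.227 CPM in aged and 0.778, 1.04 and 1.27 CPM in young libraries, at -2.31 ± 0.50 (SE, with adjusted p = 0.00641, quasi-likelihood test of edgeR). Every aged value was under every young one, and the call was lost without young 2 (0.113). The 2 higher ones averaged 1.79 ± 0.505 and 1.74 ± 0.394 CPM in aged and 0.682 ± 0.242 and 0.802 ± 0.287 CPM in young libraries, at 1.56 and 1.28 (adjusted p = 0.00981 and 0.0417). The first was lost without aged 2 (0.0716) or young 2 (0.147), and the second without aged 2 (0.170), aged 4 (0.141), young 1 (0.267) or young 2 (0.203).

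**Figure D5:**
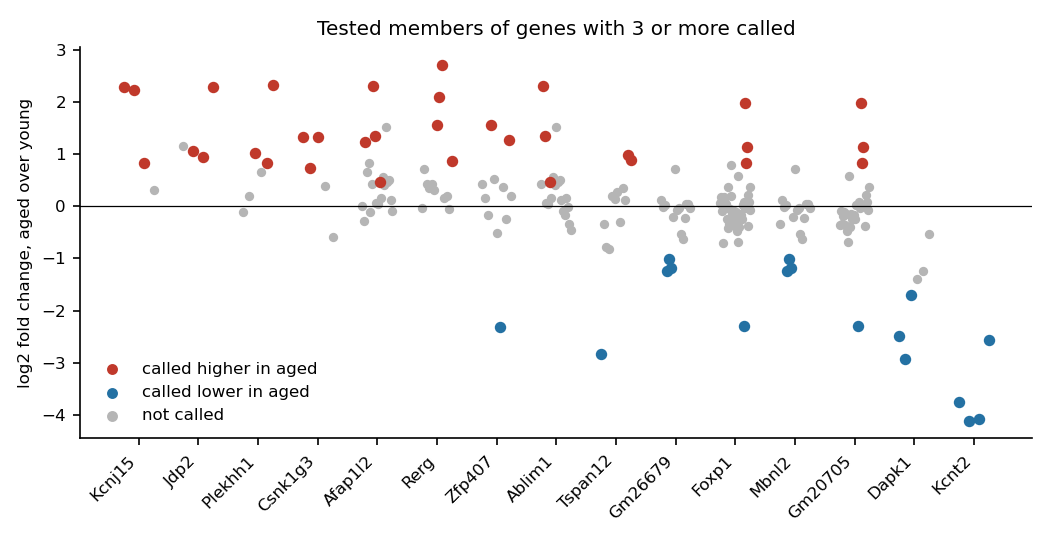
Log2 fold change, aged over young (y axis), of every tested later-intron peak (points) of the genes with at least 3 called peaks, grouped by nearest gene or, where only the host gene reached 3, by host gene, and ordered by median. Kcnt2 has 4 of 4 points in blue at the right and Jdp2 all 4 points above 0, while Gm20705, Foxp1, Tspan12 and Zfp407 hold both colours. The called peaks of Gm20705 and Gm26679 and 3 of those of Afap1l2 appear again under their hosts Foxp1, Mbnl2 and Ablim1.

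Most host genes with a tested promoter peak had no promoter call, more so on the higher than on the lower side. Of the 171 host genes of higher peaks, 100 had a tested promoter peak within 1000 bp of a TSS, and 1 of these was called higher and 0 lower in the quasi-likelihood test of edgeR. That gene was Tnfrsf9, a costimulatory receptor, at 0.939 ± 0.265 CPM in aged and 0.317 ± 0.145 CPM in young libraries (1.78 ± 0.48 SE; adjusted p = 0.0481). Of the 79 host genes of lower peaks, 50 had one, and 4 were called lower, in 4921506M07Rik, Asxl3, Dapk1 and Ece1, and 0 higher. Among 13869 genes with a tested promoter peak, 100 had one called higher and 153 one called lower. The share on the lower side, 4 of 50, was thus above that of all genes. On the higher side, 1 of 100, it was close to that of all genes. These shares were not tested. The promoter of 4921506M07Rik was at 1.02 ± 0.345 CPM in aged and 5.87 ± 0.797 CPM in young libraries (-2.58 ± 0.24), and that of Ece1, which encodes an endothelin-converting enzyme, at 4.30 ± 0.796 and 9.93 ± 0.553 CPM (-1.23 ± 0.17). These promoter genes were named after their values were seen.

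Counts of the later-intron peaks summed per nearest gene gave 7069 testable sums, fitted together with the sums of each gene's other peaks, and 93 (1.32%) were called higher and 35 (0.495%) lower, against 1.19% and 0.777% over all 33988 sums. With the library number as a block the counts were 190 and 131, without young 2 they were 34 and 21, and without aged 4 they were 33 and 27. The counts over all sums in these fits are not given here. Of the 81 higher genes whose other peaks could also be summed, 6 were called higher there as well and 0 lower. Of 29 such lower genes 2 were called lower there, Dapk1 and Tiam1. Both shares were above the 1.19% higher and 0.777% lower of all sums, and these differences were not tested. For 12 higher and 6 lower genes no single peak had been called.

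Lists of genes by role, matched to the nearest gene, were called at about the rate of later-intron peaks in general. The 15 lists had 1005 entries, of which 903 were in the annotation, and of 1470 tested peaks near any listed gene 12 were higher and 9 lower (1.43%, against 1.42% of all tested later-intron peaks). The intestinal transcription factors and nuclear receptors had 0 calls among 115 peaks in the quasi-likelihood test of edgeR and 0 by DESeq2 or limma-voom, with 4 at an unadjusted p below 0.05 and a median log2 fold change of -0.01; Ppard averaged 2.67 ± 0.844 CPM in aged and 1.74 ± 0.127 CPM in young libraries (0.62, adjusted p = 0.429). The xenobiotic and ABC transporter genes had 0 of 61, also by DESeq2 and limma-voom, with 3 at an unadjusted p below 0.05 and a median of -0.03, where a peak in Slco5a1 (-0.72, adjusted p = 0.172) was called only with the library number as a block (adjusted p = 0.0122).

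Near solute carrier and ion transport genes 2 of 149 peaks were lower and 0 higher (4 calls with the block), with a median of 0.02, and matched on the host gene 2 of 291 were higher and 4 lower. In intron 2 of Atp2b1, the plasma membrane calcium pump, the values were 1.42, 1.88 and 1.93 CPM in aged libraries and 3.25, 5.002 and 4.78 CPM in young ones, at -1.27 ± 0.24 (SE, with adjusted p = 0.0012, quasi-likelihood test of edgeR). The Atp2b1 call was lost with every library thinned to the depth of the shallowest (adjusted p = 0.158, same test). In Slc26a3, the chloride and bicarbonate exchanger of enterocytes, a peak fell to 8.80 ± 1.28 CPM in aged libraries, against 12.8 ± 0.911 CPM in young ones (-0.54, adjusted p = 0.0458), a call lost without any library but aged 1 (0.0559 to 0.285). Among 63 peaks near lipid, sterol and bile acid genes 1 was lower (2 calls with the block), in Mgll, monoacylglycerol lipase (0.834 ± 0.190 and 1.86 ± 0.152 CPM; -1.15, adjusted p = 0.0469), lost without any single library (0.0544 to 0.305); the median was -0.03. Mogat2, which makes diacylglycerol for fat absorption, had a peak at 9.26 ± 1.72 CPM in aged and 5.91 ± 1.64 CPM in young libraries that was called only with the block (0.61, adjusted p = 0.00343), without aged 2 (0.0218) or without young 1 (0.00497).

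Wnt, Notch, BMP, TGF-beta and Hippo genes had 2 higher and 0 lower of 137, with a median of -0.03, and matched on the host gene 4 of 282 were higher and 4 lower. The nearest genes of the 2 were Jag1, a Notch ligand (0.970 ± 0.167 and 0.242 ± 0.0807 CPM; 1.85, adjusted p = 0.0276), and Ptch1, the Hedgehog receptor (1.76 ± 0.347 and 0.684 ± 0.187 CPM; 1.26, adjusted p = 0.0364), both in the quasi-likelihood test of edgeR. The Jag1 call was lost without any library but aged 4 (0.0615 to 0.202) and the Ptch1 call without any but aged 1 (0.0818 to 0.160). Growth factor receptor and MAP kinase genes had 2 higher of 152 (4 calls with the block) and a median of -0.05, near the receptor kinase genes Ptk7 (6.01 ± 0.689 and 3.197 ± 0.420 CPM; 0.91, adjusted p = 0.00544) and Ntrk2 (5.61 ± 0.475 and 2.96 ± 0.223 CPM; 0.89, adjusted p = 0.00709), both lost without young 2 (0.125 and 0.0598). Inflammation, interferon and NF-kB genes had 2 higher of 92, with a median of 0.04, and both were side by side in the RefSeq span of Exoc2, an exocyst gene, with Irf4 only the nearest TSS. They averaged 1.59 ± 0.121 and 1.69 ± 0.199 CPM in aged and 0.443 ± 0.0841 and 0.592 ± 0.0462 CPM in young libraries (1.85 and 1.53), and both calls were lost without young 2 (0.0597 and 0.0978).

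The Arhgef10l peak whose sequence is printed above was called higher, with 17.996, 19.7 and 20.1 CPM in aged and 13.96, 12.9 and 15.1 CPM in young libraries, at 0.48 ± 0.13 (SE, with adjusted p = 0.0407, quasi-likelihood test of edgeR). Its ages did not overlap, and its call was lost without any library but young 4 (0.0602 to 0.390). Of 134 peaks near chromatin regulator genes 2 were higher and 1 lower, with a median of -0.05. One of the higher ones was a peak in Sulf2 nearest to Ncoa3 (0.934 ± 0.274 and 0.113 ± 0.125 CPM; 2.63, adjusted p = 0.00674; lost without aged 4, 0.0979, or young 1, 0.0699). The lower one, named after its values were seen, was in Tet2, which oxidises methylcytosine (1.001 ± 0.203 and 2.202 ± 0.0255 CPM; -1.14, adjusted p = 0.0281; lost without any single library but aged 1 and young 4, 0.0976 to 0.144).

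Epithelial adhesion and cytoskeleton genes had 1 lower of 115 (2 calls with the block) and a median of 0.05: a peak in Sytl3 nearest to Ezr, the microvillus linker ezrin, had 7.21, 4.60 and 6.13 CPM in aged and 13.4, 10.4 and 10.8 CPM in young libraries, at -0.98 ± 0.17 (SE, with adjusted p = 0.000416, quasi-likelihood test of edgeR). Eps8, an actin-bundling protein gene of microvilli, had a peak at 0.928 ± 0.114 and 2.13 ± 0.512 CPM (-1.10, adjusted p = 0.0555, with the block 0.00625). Goblet, Paneth, tuft and enteroendocrine genes had 1 higher of 29, with a median of 0.08, in Creb3l1, an endoplasmic reticulum transcription factor gene (3.07 ± 0.786 and 1.17 ± 0.321 CPM; 1.32, adjusted p = 0.00519; lost without aged 1, 0.0596). Circadian genes had 1 lower of 28 (2 calls with the block) and a median of -0.05, a peak in Ror2 144627 bp from Nfil3 (2.15 ± 0.837 and 5.27 ± 0.679 CPM; -1.29, adjusted p = 0.00111), while the clock output factor Hlf (1.31 ± 0.273 and 2.57 ± 0.349 CPM; -0.98) had an adjusted p of 0.0600 and, with the block, 0.00738. The Ror2 call was lost with every library thinned to the depth of the shallowest (0.0746, same test).

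Genes of other cell types were listed as well. Leukocyte genes had 0 calls of 63 in the quasi-likelihood test of edgeR and 0 by DESeq2 or limma-voom, with 7 at an unadjusted p below 0.05 and a median of -0.01. Stromal, endothelial and muscle genes had 1 higher and 1 lower of 60, with a median of -0.01: Col4a1, a basement membrane collagen (1.85, 2.34 and 3.29 CPM in aged, 0.549, 0.446 and 0.478 CPM in young libraries; 2.31, adjusted p = 4.16e-05), and Robo1, an axon guidance receptor (0.249 ± 0.0770 and 1.76 ± 0.821 CPM; -2.57, adjusted p = 0.000417). Neuronal adhesion and synapse genes had 1 higher of 79, with a median of 0.01, a peak in Arhgef12 nearest to Grik4 (2.12 ± 0.297 and 0.531 ± 0.113 CPM; 2.08, adjusted p = 0.000177). In bulk libraries, more cells of a type and more open chromatin per cell cannot be told apart; the marker levels given above did not differ by a call between the ages, and their part in these results was not tested.

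None of the strongest later-intron peaks was called. The 6 with the highest mean lay in Myo7b, a brush border myosin, in Sel1l3, in Trak1, an adaptor for mitochondrial transport, in Pard3, a cell polarity gene, in Slc3a1, a subunit of the cystine transporter, and in Gm12216 next to Slc22a5, the carnitine transporter. Myo7b (intron 12 of 46, chr18:31998791-31999606) had 126, 116 and 125 CPM in aged and 122, 109 and 121 CPM in young libraries, a log2 fold change of 0.06 ± 0.10 (SE, with adjusted p = 0.962, quasi-likelihood test of edgeR). The other 5 ran from 78.7 to 103 CPM in aged and 78.3 to 99.9 CPM in young libraries, with log2 fold changes between -0.03 and 0.05 and the ages overlapping at each. Slc22a5-proximal values were 88.0, 76.4 and 71.8 CPM in aged and 80.4, 78.0 and 76.6 CPM in young libraries.

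Close to the distance threshold, the 3 peaks just inside, each 10002 bp from a TSS, were in Rab11fip5, Fmn1 and Best3 and averaged 4.70 ± 0.451, 2.98 ± 0.399 and 35.5 ± 0.592 CPM in aged libraries and 7.23 ± 1.68, 3.93 ± 0.734 and 34.3 ± 2.68 CPM in young ones. The 3 just outside, at 9997, 10000 and 10000 bp in Tacc2, BC016579 and 9230112D13Rik, averaged 2.68 ± 0.0743, 4.08 ± 0.410 and 1.63 ± 0.376 CPM in aged and 2.26 ± 0.310, 3.98 ± 0.491 and 1.52 ± 0.236 CPM in young libraries.

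As a class, later-intron peaks held 9.37%, 9.85% and 9.99% of all counts in aged libraries 1, 2 and 4 and 9.20%, 9.91% and 10.4% in young libraries 1, 2 and 4, and the ages overlapped. The means were 9.74 ± 0.324% and 9.84 ± 0.611% (SD, n = 3 each; difference -0.103 points, exact two-sided permutation test, p = 0.9, where the smallest possible is 0.1). The log2 ratio to first-intron counts was -0.651, -0.615 and -0.606 in aged and -0.656, -0.608 and -0.547 in young libraries, a difference of -0.02 (p = 0.7, same exact test). The log2 ratio to intergenic peaks at 10 to 100 kb averaged -0.55 ± 0.02 in aged and -0.53 ± 0.02 in young libraries, a difference of -0.02 (p = 0.3, same exact test). Peaks at 10 to 20 kb held 32.6 ± 0.296% of the class's counts in aged and 32.2 ± 0.292% in young libraries, and those over 100 kb 7.77 ± 0.136% and 7.95 ± 0.138% (p = 0.2 each, same exact test). Over the 7 such comparisons the adjusted p values were 0.42 to 0.9. Since same-numbered libraries deviated together, the differences were also taken within each pair, aged minus young for numbers 1, 2 and 4. The share of all counts gave 0.173, -0.0573 and -0.424 points, and the ratio to intergenic peaks gave -0.0308, -0.00566 and -0.0335. Within the class, the share at 10 to 20 kb gave 0.231, 0.138 and 0.734 points, that at 50 to 100 kb -0.0297, -0.0780 and -0.348 points and that over 100 kb -0.156, -0.0932 and -0.281 points. In these last 4 measures all 3 pairs had one sign (exact two-sided sign-flip test, p = 0.25 each, the smallest that 3 pairs allow), and in the other 3 the pairs differed in sign, at p = 0.5 to 0.75. These tests cannot pass a threshold of 0.05, so they show neither a difference nor its absence.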

How the data were processed

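ATAC-seq counts per peak were deposited by the authors for 6 libraries, 3 aged and 3 young, as raw featureCounts values over consensus peaks with an annotatePeaks table of their positions and genes. The reads were handled with Trim Galore 0.6.4, BWA 0.7.17-r1188, SAMtools 1.10, Picard 2.23.1, bedtools 2.29.2, MACS2 2.2.7.1 and featureCounts 2.0.1 on GRCm38, per the submitters' processing notes. Peak calling settings, any Tn5 shift and whether reads or fragments were counted were not given in the sources used here. Library totals ran from 6149680 to 23935291 counts.

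From these counts, edgeR 4.0.16 in R 4.3.3 (TMM scaling, filterByExpr, robust quasi-likelihood test of aged over young) was fitted to all peaks, with Benjamini-Hochberg adjustment over the 129588 tested and calls at an adjusted p below 0.05. CPM are counts per TMM-scaled library size, times 1e6. DESeq2 1.42.0, limma 3.58.1 (voom), other scalings, no filter, thinning to the shallowest library, leaving out each library and a block on the library number were alternatives. The script was tested on simulated counts. Same-numbered aged and young libraries deviated together (r = 0.236, 0.182 and 0.123; all other pairs 0.0287 or lower), which met the criterion of 0.1 for pairing; the labels give no reason for it. Class shares were compared with exact permutation tests and, added after seeing the data, exact sign-flip tests within pairs.

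Peaks were named by these rules: the 10 smallest p in each direction, the 6 strongest, up to 2 smallest p per gene list, the called peaks of nearest genes with at least 3 calls, and the 3 peaks on each side of the distance threshold. The 10 in each direction were taken from called peaks whose aged and young CPM values did not overlap. Their separation by age therefore follows from the choice. The peaks, rules and lists were chosen with earlier results of these data known. Host gene means the gene whose intron the annotation names, and nearest gene the one with the nearest TSS. Sequences come from RefSeq promoter windows of GRCm38.p6 (250 bases before to 50 after a start); no genome sequence was used here. A few named peaks and 1 of the 15 gene lists are not reported here.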

Additional observations from a re-analysis of the deposited data

How the results depend on the processing

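Counts of called later-intron peaks moved with the settings. Against 205 higher and 93 lower, DESeq2's Wald test called 109 and 59, an adjusted p below 0.01 left 114 and 53, thinning every library to the shallowest left 64 and 29, and the block on library number, in which same-numbered libraries are paired, gave 384 and 231. Over all peaks, 1393 higher and 684 lower in the main fit, the counts moved the same way. They were 805 and 462 by DESeq2's Wald test, 514 and 279 with thinning and 2578 and 1420 with the block. A distance over 25000 bp, by construction with fewer peaks, left 102 later-intron peaks higher. Leaving out each library gave 95 to 217 higher and 59 to 97 lower. Other scalings, limma-voom and no filter on low counts stayed within 1.5 times. Of 128 nearest genes with called sums, the block gave 321 and leaving out a library 55 to 128. The difference in share of counts, -0.103 points, ran from -0.423 to 0.185 without single libraries, and was positive without aged 1 (0.0800) and young 4 (0.185); the log2 ratio to first-intron counts ran from -0.0461 to 0.00820, positive without young 4, and that to intergenic counts from -0.0329 to -0.00992. The cause of these shifts was not tested. Of 1282 recomputed values for 101 named peaks, 145 lost a call, 9 gained one and 0 reversed a called direction. Thinning accounted for 20 of the losses. Not all losses are listed with the single peaks above, among them losses under thinning, DESeq2, limma-voom, library size scaling and no filter on low counts. The log2 fold changes of 3 uncalled strongest peaks, near 0, took both signs: Trak1 (-0.03 to 0.05), the Slc22a5-proximal peak (-0.08 to 0.07) and Slc3a1 (-0.08 to 0.03). The block changed no call of a named peak other than the Gphn and Jarid2 peaks, which lost theirs (0.461 and 0.518), and Eps8, Hlf, Mogat2, Slco5a1 and the Rab11fip5 peak (0.0229), which gained one. Paired differences of the class shares, added after seeing the data, have by arithmetic the same mean as the unpaired ones (-0.103 points for the share of counts). Depth limits peaks near 1 CPM, where a median peak of young 4 has 10 counts.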

Other observations

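The later-intron peak with the largest log2 fold change among those not called lay in the last intron of Snd1, the gene of a nuclease of RNA silencing and splicing complexes (chr6:28929241-28929755, chosen after its values were seen). It had 0, 7.19 and 3.69 CPM in aged libraries 1, 2 and 4, against 0.183, 0.0495 and 1.59 CPM in young libraries 1, 2 and 4. The libraries of each age were far apart from one another, and the difference was 3.50 ± 1.82 (SE, with adjusted p = 0.753, quasi-likelihood test of edgeR).

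In Csnk1g3, the gene of a casein kinase, 3 of 5 tested later-intron peaks were called higher, also chosen after their values were seen. They averaged 2.14 ± 0.421, 10.2 ± 0.177 and 3.30 ± 0.489 CPM in aged libraries and 0.900 ± 0.271, 5.96 ± 0.691 and 1.27 ± 0.375 CPM in young ones (SD, n = 3 each), and the other 2, at 0.40 and -0.59 on the log2 scale, were not called. The 3 calls (adjusted p = 0.0174, 0.0044 and 0.0027, quasi-likelihood test of edgeR) were all lost without young 2 (0.0570, 0.0569 and 0.0802), and the first also without aged 4 (0.124) or young 1 (0.191).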
